A study of Mus musculus with 6 samples.

Results

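Small nuclear and small nucleolar RNAs are short noncoding RNAs that work in the nucleus as parts of protein particles. They were taken here as the probe sets whose only gene symbol in the platform annotation starts with Snord, Snora, Scarna or Rnu or equals Rn7sk, with 1 probe set kept per symbol, the one with the highest mean over the arrays. This gave 60 RNAs among the 19938 symbols on the array. A probe set entered the tests when at least 1 group had a mean log2 intensity above 3.0, and 57 of the 60 RNAs passed, among 17145 genes tested. By class, the 57 are 31 C/D box RNAs, 20 H/ACA box RNAs, 3 Cajal body RNAs, 2 spliceosomal RNAs and 7SK RNA.

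The study asked what follows for gene expression when acetylation of the tail of RPB1, the catalytic core protein of RNA polymerase II, is blocked. NIH/3T3 fibroblasts, a mouse cell line that grows without limit, were stably transfected with HA-tagged mouse RPB1. They were grown in medium with the toxin α-amanitin. On 3 arrays the cells carried 8KR RPB1, in which arginine replaces the lysine at the seventh position of every tail repeat that has one, and on 3 arrays they carried wild type RPB1. Total RNA of each sample was read on an Affymetrix Mouse Gene 1.0 ST array, and both the labels and the paper call the 3 samples of a group biological replicates. Both groups share the HA tag, the transfection and the α-amanitin, the cells keep their own Polr2a gene, and the sources used here do not say whether a line was 1 clone or a pool. A difference between the lines other than the mutation therefore cannot be told apart from the mutation.

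As background, C/D box RNAs guide the methylation of ribosomal RNA, and H/ACA box RNAs guide the conversion of its uridines to pseudouridine. Most of both kinds in mammals are cut out of introns of other genes, often genes for ribosomal proteins, so that RNA polymerase II makes them as part of a host transcript. A few, such as U3 and U8, have genes of their own and act in the cutting of ribosomal precursor RNA. Cajal body RNAs guide the same modifications on the spliceosomal RNAs. Spliceosomal RNAs form the core of the splicing machinery and, apart from U6, are made by RNA polymerase II from short genes of their own with the help of the SNAPc complex. 7SK RNA is made by RNA polymerase III and holds the elongation kinase P-TEFb in an inactive particle.

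The tables used here hold no sequence for any of the 60 RNAs, so the promoters of host genes are shown instead, as the sites where transcription of an intron-encoded RNA begins. The 4 printed belong to hosts of small RNAs with an unadjusted p under 0.01. Gm41774, the predicted gene that contains Scarna17, also met this limit and is not printed. Each is the stretch from 50 bases before to 50 bases after the RefSeq start (GRCm38.p6), read on the gene's own strand, with runs of 8 or more C or T in capitals. Such pyrimidine runs at the start of a transcript are well known from ribosomal protein genes. Of the runs marked below, however, only that of Ipo7, which is not a ribosomal protein gene, spans the RefSeq start.
Rpl4, host of Snord16a, chr9:64173337-64173436, plus strand: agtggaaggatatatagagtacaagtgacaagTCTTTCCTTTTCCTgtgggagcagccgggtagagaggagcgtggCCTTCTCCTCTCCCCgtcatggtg
Ipo7, host of Snora23, chr7:110018265-110018364, plus strand: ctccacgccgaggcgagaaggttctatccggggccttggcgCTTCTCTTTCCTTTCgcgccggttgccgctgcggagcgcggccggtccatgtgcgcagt
Rpsa, host of Snora62, chr9:120127716-120127815, plus strand: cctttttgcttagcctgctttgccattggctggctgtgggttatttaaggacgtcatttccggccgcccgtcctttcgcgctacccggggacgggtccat
Ncl, host of Snora75, chr1:86359406-86359505, minus strand: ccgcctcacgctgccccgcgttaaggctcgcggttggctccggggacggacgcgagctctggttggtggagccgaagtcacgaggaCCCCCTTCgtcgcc

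A run of this kind stood in 35.7% of the 32851 promoters in the RefSeq table on the gene's strand, and in 38.1% on the other strand. Among promoters of genes that contain a small RNA it stood in 21 of 35, or 60%. These promoters came from 33 of 46 such genes. Rpl4 had 2 runs, Ipo7 and Ncl had 1 each and Rpsa had none. A run is a description of these letters and no measure of transcription.

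Median log2 intensities over the whole array were 4.53 to 4.54 on the 8KR arrays and 4.49 to 4.52 on the wild type arrays. Arrays of 1 group correlated with each other at 0.982 to 0.984, and arrays of opposite groups at 0.975 to 0.978. Of the fibroblast markers looked at, 8 of 8 were above the filter, and Col3a1, a fibrillar collagen, fell by 0.52 on the log2 scale in 8KR cells (adjusted p = 0.0364). Markers of other cell types numbered 18, of which 14 were above the filter, 0 were called by limma and 1, Des, a muscle filament gene, had an unadjusted p under 0.05. The group means of all 18 ran between 2.40 and 5.13, and 14 of them lay below the median of the array. Polr2a, the gene for RPB1, averaged 12.13 in 8KR cells and 12.10 in wild type cells (difference 0.03, adjusted p = 0.86), but its probe set does not tell the tagged copy from the cells' own.

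Of the 57 tested RNAs, 3 differed between 8KR and wild type cells at an adjusted p under 0.05 in limma. Rnu3a, a gene for U3, was lower in 8KR cells, while the Cajal body RNA Scarna17 and the C/D box RNA Snord16a were higher. These 3 are 5.26% of the tested RNAs, against 4.36% of all 28543 probe sets and 5.39% of all genes, and a share this near the background is no result about small RNAs as a group. Of all probe sets, 1.99% were called higher and 2.38% lower in 8KR cells. In RNA from whole cultures, fewer cells with a transcript and less of it per cell cannot be told apart.

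Rnu3a is 1 of several mouse genes for U3, the C/D box RNA needed for the first cuts in the ribosomal precursor. Its log2 intensity was 6.72, 7.02 and 7.06 on the 8KR arrays, against 7.60, 7.76 and 7.77 on the wild type arrays. Every 8KR array lay below every wild type array. The means were 6.93 ± 0.19 in 8KR cells and 7.71 ± 0.10 in wild type cells (SD, n = 3 each), which is a log2 difference of -0.78 (SE 0.12, adjusted p = 0.0248) or a level 1.71-fold lower in 8KR cells. The call did not outlast the loss of an array: without each of the 6 arrays in turn, the difference was -0.84 to -0.67 and the adjusted p 0.0593 to 0.0906. The other U3 genes on the array share 4 tested probe sets with identical values, which carry several symbols and so were not members. These had 7.06, 7.16 and 7.27 on the 8KR arrays and 7.53, 7.29 and 7.26 on the wild type arrays, with overlap, and were not called (difference -0.19, SE 0.11, adjusted p = 0.39). The call therefore holds for the probe set of Rnu3a and not for U3 as a whole.

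Scarna17, inside the predicted gene Gm41774, is a Cajal body RNA, of the class that guides modification of the spliceosomal RNAs. It stood at 10.27, 10.28 and 10.30 on the 8KR arrays, against 9.53, 9.53 and 9.58 on the wild type arrays. The groups were far apart relative to the spread within them. The difference was 0.73 (SE 0.067, adjusted p = 0.00612), a level 1.66-fold higher in 8KR cells. It was called with any 1 of the 6 arrays left out (adjusted p 0.0331 to 0.0377).

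Snord16a is a C/D box RNA that lies inside Rpl4, a gene for a protein of the large ribosomal subunit. Its values were 8.15, 8.33 and 8.16 on the 8KR arrays and 7.64, 7.54 and 7.49 on the wild type arrays, without overlap. The difference was 0.66 (SE 0.089, adjusted p = 0.0184), a level 1.58-fold higher in 8KR cells. As with Rnu3a, leaving out any 1 of the 6 arrays ended the call, at an adjusted p of 0.0556 to 0.0733 and differences of 0.60 to 0.70.

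**Figure D1:**
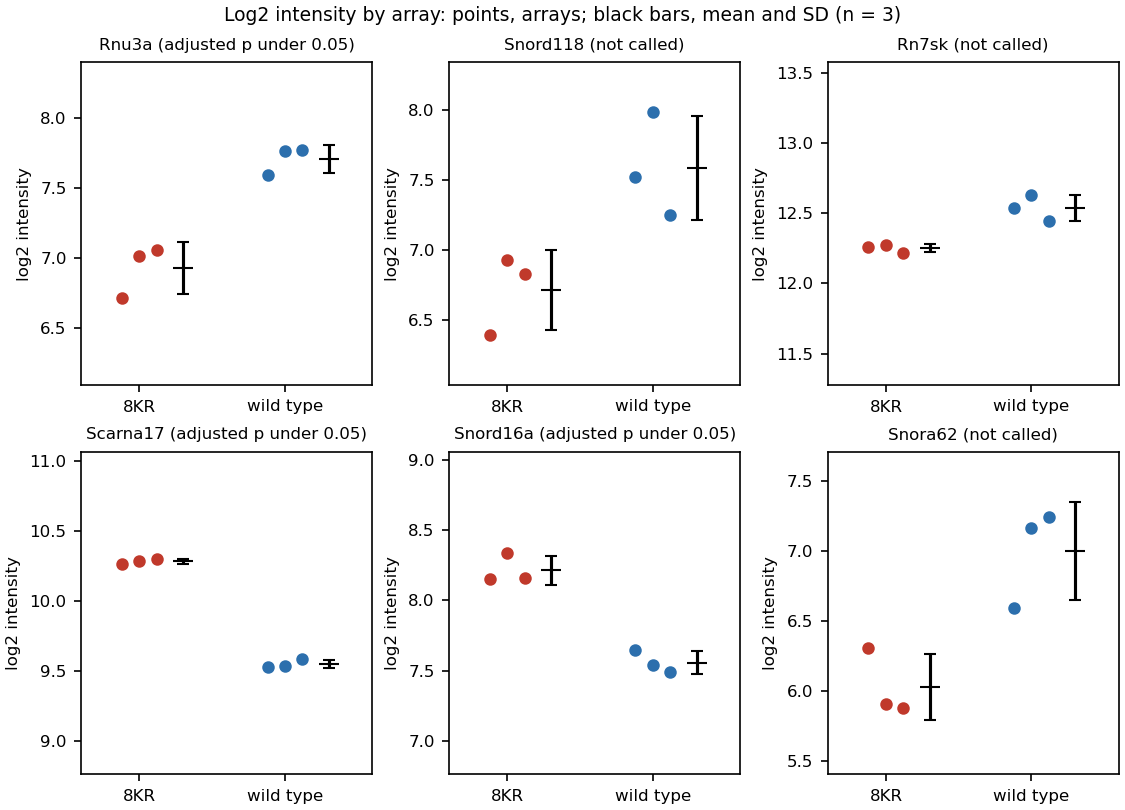
Log2 intensity (vertical axis, each panel spanning the same range of log2 units) of 6 small RNAs on the 3 8KR arrays (red, left) and the 3 wild type arrays (blue, right), with black bars for the mean and SD. The groups do not overlap in any of the 6 panels, which held for 24.6% of all tested small RNAs and 26.6% of all probe sets. Snord118, Rn7sk and Snora62 were not called.

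The remaining 54 tested RNAs were not called. At an unadjusted p under 0.05 there were 14 of the 57, with 7 higher and 7 lower in 8KR cells, or 24.6%, against 19.7% of all probe sets. The arrays of the groups did not overlap for 14 RNAs, 6 higher and 8 lower in 8KR cells, again 24.6%, against 26.6% of all probe sets. Differences ran from -0.97 to 0.79 and 45 of the 57 lay within 0.5 of zero on the log2 scale.

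Differences of the small RNAs lay on both sides of zero. In 8KR cells 30 of the 57 were higher and 27 lower than in wild type cells, the median difference was 0.04 and the mean 0.03, and the median over all probe sets was 0.01. The median level of the 57 was nevertheless lower on the 8KR arrays, at 6.17, 6.17 and 6.19, than on the wild type arrays, at 6.30, 6.28 and 6.26, so that the sign depended on how the list was summarised.

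Small RNAs also varied more between replicates than other probe sets did. Their median SD within a group was 0.242, against 0.154 over all probe sets and 0.149 over the 8445 probe sets that lie between the quartiles of their intensity. The 95% interval of a difference reached a median of 0.421 to either side, against 0.295 over all probe sets. These intervals are not adjusted for the number of probe sets, so a call on a typical member needed a larger difference than that. Snora62 at -0.97 and Snord118 at -0.87 were not called.

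**Figure D2:**
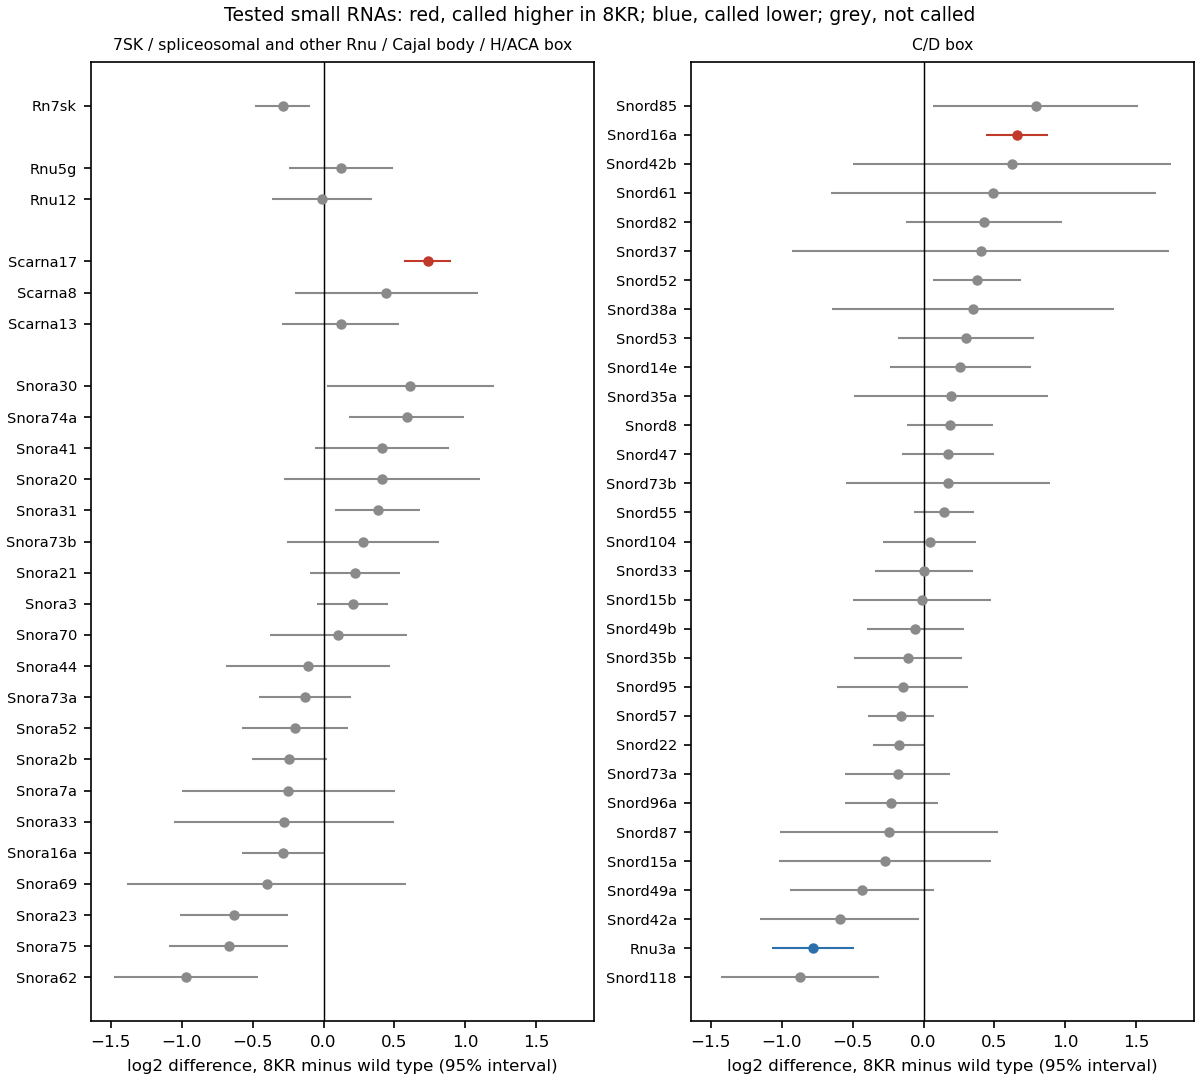
Log2 difference, 8KR minus wild type (horizontal axis), with its 95% interval for each of the 57 tested RNAs, ordered by size within a class. The 2 RNAs called higher in 8KR cells are red, the 1 called lower is blue, and the 54 not called are grey and lie on both sides of zero.

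Among the RNAs with genes of their own, Snord118 came closest to Rnu3a. Snord118, the gene for U8, had log2 intensities of 6.39, 6.93 and 6.83 on the 8KR arrays, against 7.52, 7.99 and 7.25 on the wild type arrays. All 8KR values lay below all wild type values, but the spread was wide and the difference of -0.87 (SE 0.23) was not called (adjusted p = 0.101). It passed when the fit was limited to probe sets with a single symbol (adjusted p = 0.037).

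Rn7sk, the gene for 7SK RNA, was at 12.26, 12.27 and 12.22 on the 8KR arrays and at 12.54, 12.63 and 12.45 on the wild type arrays. The groups did not overlap, and the difference of -0.29 (SE 0.08) was not called (adjusted p = 0.114). It was called with a filter at a group mean above 5.0 (adjusted p = 0.0473) and with an intensity trend in the variance (adjusted p = 0.0126). The other probe set of Rn7sk gave -0.31.

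Among probe sets with a single symbol, spliceosomal RNAs were represented by Rnu12, for U12 of the minor spliceosome, and Rnu5g, for a form of U5. Rnu12 had 5.98, 6.19 and 6.19 on the 8KR arrays and 5.84, 6.28 and 6.26 on the wild type arrays, with a difference of -0.01 and a 95% interval of -0.37 to 0.34. Rnu5g was near the filter, with means of 3.45 ± 0.11 in 8KR cells and 3.33 ± 0.27 in wild type cells (SD, n = 3 each), a difference of 0.12 and an interval of -0.25 to 0.49. Neither was called, and neither had an unadjusted p under 0.05. The intervals allow a difference in either direction. RNAs of the major spliceosome were read by probe sets with several symbols, which were not members. For U1, 9 such probe sets were tested, with 3 distinct sets of values, and differed by -0.07 to -0.03 (adjusted p 0.832 to 0.918). For U2, 7 were tested, each of which lists a protein gene as well, and differed by -0.17 to -0.15 (adjusted p 0.466 to 0.566).

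The 3 RNAs below the filter gave no test. Rnu6, for U6, averaged 1.98 in 8KR cells and 1.93 in wild type cells. Its RNA is 107 bases long in RefSeq. Scarna17, at 62 bases, averaged 10.28 in 8KR cells, while Rnu7, also at 62 bases, fell below the filter. How well the arrays read each of these RNAs was not tested. A low value therefore does not show that an RNA was scarce. Rnu7, for the U7 RNA that takes part in the processing of histone transcripts, averaged 2.41 in 8KR cells and 2.72 in wild type cells. The C/D box RNA Snord58b averaged 2.49 in 8KR cells and 2.16 in wild type cells.

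By RefSeq position, 4 of the tested RNAs lie inside no other gene: Rn7sk, Rnu12, Rnu3a and Snord118. The differences of all 4 were negative, with a median of -0.53, 3 had groups that did not overlap (26.6% of all probe sets), and 1, Rnu3a, was called (4.36% of all probe sets). Of the 53 that lie inside another gene, 30 were higher and 23 lower in 8KR cells, with a median of 0.12, 11 without overlap between groups and 2 calls, both higher. The 53 include the spliceosomal RNA Rnu5g, at 0.12, because the predicted gene Gm40527 contains it by position with strand ignored. Moved to the first class, Rnu5g would make the signs there differ. The difference between these classes was not tested, and 4 RNAs are too few to describe a class.

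The H/ACA box RNAs held the lowest value of all 57 and no call. Of the 20, 9 were higher and 11 lower in 8KR cells, with 6 at an unadjusted p under 0.05, 3 in each direction. Snora62, which lies in the ribosomal protein gene Rpsa, had 6.30, 5.91 and 5.88 on the 8KR arrays and 6.59, 7.16 and 7.24 on the wild type arrays. The groups did not overlap and the difference was -0.97 (SE 0.21, adjusted p = 0.063), a measured level 1.96-fold lower in 8KR cells.

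Snora75, in the gene for nucleolin, had 6.15, 5.89 and 6.25 on the 8KR arrays and 6.43, 6.98 and 6.88 on the wild type arrays (difference -0.67, adjusted p = 0.0969). Snora23, in the gene for importin 7, had 9.12, 9.67 and 9.23 on the 8KR arrays and 9.86, 10.04 and 10.01 on the wild type arrays (difference -0.63, adjusted p = 0.0885). Both were without overlap between groups. Without 8KR replicate 2, Snora23 was called (-0.79, adjusted p = 0.0459). With any other single array left out, Snora23 was not called (adjusted p 0.162 to 0.216). With a filter at a group mean above 5.0, Snora62, Snora75 and Snora23 were all called, at adjusted p-values of 0.0286, 0.0478 and 0.0428.

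At the upper end of this class, Snora30, in the chromatin remodeller gene Srcap, averaged 5.18 ± 0.12 in 8KR cells and 4.56 ± 0.48 in wild type cells (SD, n = 3 each), a difference of 0.61 (adjusted p = 0.238). Snora74a, in the noncoding host Snhg4, had 7.78, 7.87 and 7.78 on the 8KR arrays and 6.98, 7.59 and 7.11 on the wild type arrays (difference 0.59, adjusted p = 0.122). Wild type replicate 2 was the highest of its group there, and without it Snora74a was called at 0.77 (adjusted p = 0.0389). With any other single array left out, Snora74a was not called (adjusted p 0.234 to 0.276). Snora41, in the elongation factor gene Eef1b2, had a difference of 0.41 with overlapping groups (adjusted p = 0.314).

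C/D box RNAs other than those named above were spread around zero. Of all 31, 17 were higher and 14 lower in 8KR cells, with a median of 0.04, and 6 had an unadjusted p under 0.05, 3 in each direction. Snord85 had the highest difference of the 57, at 0.79. Its values of 3.999, 4.29 and 4.83 on the 8KR arrays overlapped with 4.04, 3.13 and 3.57 on the wild type arrays (adjusted p = 0.216).

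A pair of C/D box RNAs in the same host had opposite signs. Snord42b, in the ribosomal protein gene Rpl23a, averaged 5.94 ± 0.82 in 8KR cells and 5.32 ± 0.52 in wild type cells (difference 0.62, adjusted p = 0.522). Snord42a, also in Rpl23a, averaged 5.02 ± 0.36 in 8KR cells and 5.61 ± 0.30 in wild type cells (difference -0.59, adjusted p = 0.228; SD, n = 3 each). Neither passed the test, and Rpl23a itself differed by 0.00 (adjusted p = 0.995).

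The 3 Cajal body RNAs had positive differences, and Scarna17 was the 1 called. Scarna8, in the spindle gene Haus6, had 6.19, 5.26 and 5.96 on the 8KR arrays and 5.66, 5.18 and 5.24 on the wild type arrays (difference 0.44, adjusted p = 0.428). Scarna13, in the noncoding host Snhg10, had 7.47, 7.51 and 7.78 on the 8KR arrays and 7.79, 7.25 and 7.36 on the wild type arrays (difference 0.12, adjusted p = 0.762). Both overlapped between groups.

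Since most of these RNAs come from introns, each was set beside the gene that contains it. A single containing gene was found for 50 of the 57, several for 3 and none for 4. In 27 cases the single containing gene was itself tested under its own symbol, which gave 23 hosts, 10 of them ribosomal protein genes. The RefSeq gene table that places the small RNAs gives no strand for them, so a containing gene may lie on the opposite strand, and a probe set inside an intron does not separate the mature small RNA from the unspliced host transcript.

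Of the 23 hosts, 1 was called: Wdr43, a gene for a ribosome assembly factor, rose by 0.44 in 8KR cells (adjusted p = 0.0281). Its small RNA Snord53 had a difference of 0.30 (adjusted p = 0.47). Host differences ran from -0.30 to 0.44, with a median size of 0.0742, against 0.383 for the small RNAs inside them. The small RNA had the larger difference in 25 of 27 pairs. Its replicates were also less alike, with a median SD within a group of 0.285, against 0.0447 for the hosts. The hosts were brighter, with a median of their mean log2 intensities of 11.22. The median level of all 57 tested small RNAs was 6.17 to 6.30 on the arrays. Whether this gap in intensity contributed to the smaller differences and SDs of the hosts was not tested.

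The signs of small RNA and host matched in 13 pairs and opposed in 14. Over the 27 pairs, Pearson's r was 0.29 and Spearman's rho 0.23. These are given as a description across genes, which share the same 6 arrays, and 4 of the hosts stand in it with a pair of small RNAs each.

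Snord16a and Rpl4 had differences of opposite sign. Rpl4 had 12.002, 11.99 and 11.95 on the 8KR arrays and 12.20, 12.20 and 12.13 on the wild type arrays, a difference of -0.19 that was not called (adjusted p = 0.196). The gap between the 2 differences was 0.85. With 3 against 3 arrays a permutation test of the gap cannot give a p under 0.1.

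Snora62 and Rpsa were both lower on the 8KR arrays, with Rpsa at -0.24 (adjusted p = 0.12). Ipo7, which holds Snora23, had a difference of 0.08, and Ncl, which holds Snora75, one of 0.11, both opposite in sign to the small RNA and neither called.

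**Figure D3:**
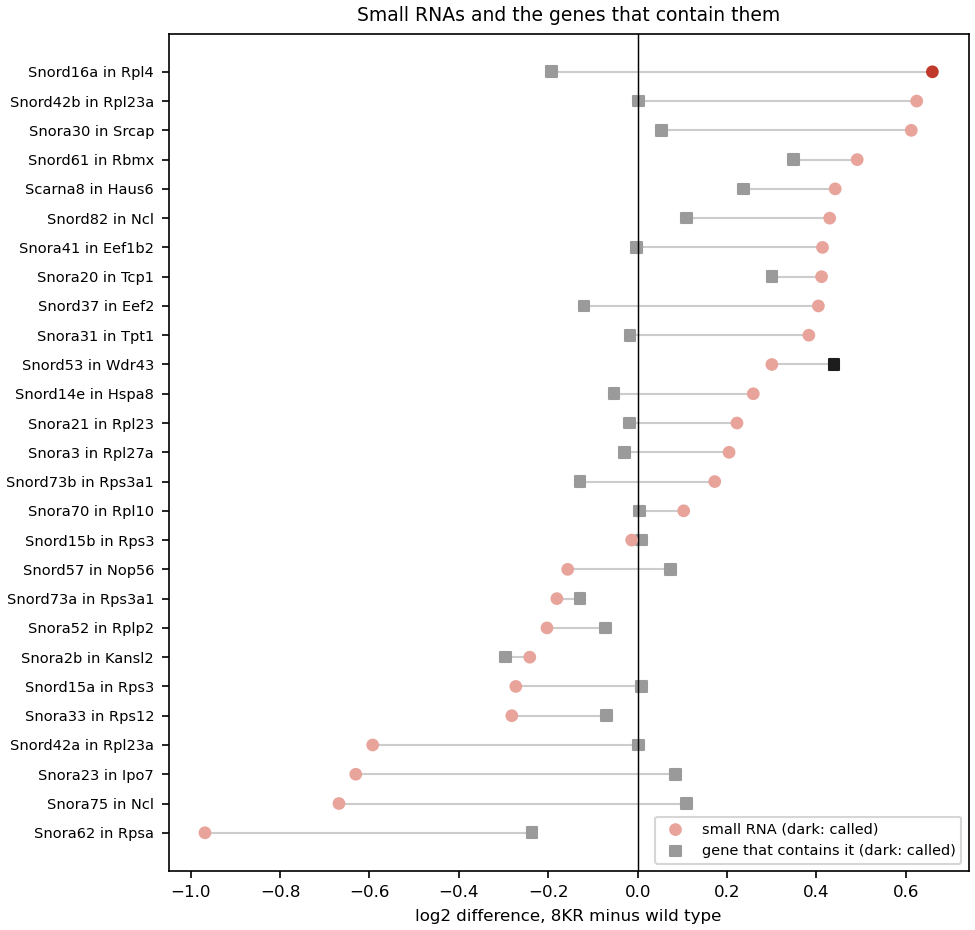
Log2 difference, 8KR minus wild type (horizontal axis), of 27 small RNAs (circles) and of the gene that contains each (squares), ordered by the small RNA's value, with dark symbols for an adjusted p under 0.05. Squares stay between -0.30 and 0.44, while circles reach from -0.97 to 0.66.

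Where a host, tested or not, held more than 1 tested small RNA, it held 2, and there were 10 such hosts. The signs of the pair were the same in 6 and opposite in 4. The opposite pairs were Snord82 at 0.43 and Snora75 at -0.67 in Ncl, Snord42a and Snord42b in Rpl23a, Snord73a at -0.18 and Snord73b at 0.17 in Rps3a1, and Snora73a at -0.13 and Snora73b at 0.28 in Snhg3. None of these 8 RNAs was called. At an unadjusted p under 0.05, Snora75 and Snord42a passed.

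Noncoding host transcripts were looked at as a list of 21, of which 7 were tested and 0 called by limma, with 3 at an unadjusted p under 0.05. Gas5, a spliced transcript whose introns hold many C/D box RNAs, had 10.55, 10.58 and 10.55 on the 8KR arrays and 10.86, 10.88 and 10.86 on the wild type arrays. The replicates were close and did not overlap between groups, and the difference of -0.31 was just outside the threshold (adjusted p = 0.0632). Rian, an imprinted host of many C/D box RNAs, differed by 1.06 with a wide spread (SE 0.30, adjusted p = 0.122).

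The genes on either side of the 3 called RNAs were read in the same fit, 5 tested genes per side. Over all genes tested, 5.39% were called, and 8876 were higher and 8269 lower in 8KR cells. A link between a small RNA and its neighbours was not tested. All 10 neighbours of Snord16a had negative differences, opposite to its own, and 2 were called. Snapc5 fell by 1.82 (adjusted p = 0.00133) and Map2k1, a kinase gene of the ERK pathway, fell by 0.53 (adjusted p = 0.0284). Of the 10 neighbours of Scarna17, 8 had positive differences, with a median of 0.26, and Smad7, an inhibitor of TGF-β signalling, rose by 0.73 (adjusted p = 0.0184). Around Rnu3a none of 10 was called, 5 had positive differences, 1 had an unadjusted p under 0.05 (Slc16a10, a transporter gene, at -0.50), and the median was 0.01.

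Genes that make, process or bind small RNAs were read from lists, hosts and related small RNAs included. Of 150 symbols, 129 were tested and 9 were called, 6 higher and 3 lower in 8KR cells. That is 6.98%, against 5.39% of all genes. The same share applies to each list below, and the lists are too short for a count of calls to describe one.

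Among 14 tested genes for transcription of snRNA genes, 1 was called. Snapc5 encodes a subunit of SNAPc, the complex that binds the promoters of U RNA genes and of 7SK. It had 5.57, 5.38 and 5.34 on the 8KR arrays and 7.27, 7.33 and 7.15 on the wild type arrays, a difference of -1.82 (SE 0.097, adjusted p = 0.00133). This was the largest difference among the 129 genes. The next smallest p was that of Ice1, a gene for the little elongation complex that acts at snRNA genes, at 0.54 (adjusted p = 0.0516). A link between Snapc5 and the values of Rnu3a, Snord118, Rn7sk, Rnu12 or Rnu5g was not tested. Of these RNAs only Rnu3a was called. The probe sets of U1, U2 and the other U3 genes were not called.

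Integrator, which cuts the ends of spliceosomal RNA precursors, had 0 of 15 genes called by limma and 3 at an unadjusted p under 0.05. The smallest p-values were those of Ints12 at 0.58 (adjusted p = 0.107) and Ints4 at 0.22 (adjusted p = 0.228). Of 21 genes for the cap, export and assembly of spliceosomal RNAs, 1 was called: Smn1, whose protein loads the Sm ring, rose by 0.64 in 8KR cells (adjusted p = 0.0176). Gemin5, for the subunit that recognises the RNA, differed by 0.29 (adjusted p = 0.08). Spliceosomal core and U7 proteins had 0 of 29 genes called by limma, 3 at an unadjusted p under 0.05 and 22 of 29 positive, with a median of 0.07. Snrpd2 and Snrpd1, genes for Sm ring proteins, were highest on this list by p, at 0.28 (adjusted p = 0.0875) and 0.25 (adjusted p = 0.173).

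Of 11 genes for C/D box proteins and assembly factors, 2 were called, both higher in 8KR cells and both for core proteins of the particle. Fbl, for the methyltransferase fibrillarin, had 10.10, 10.14 and 10.05 on the 8KR arrays and 9.64, 9.46 and 9.44 on the wild type arrays, a rise of 0.59 (adjusted p = 0.0228). Nop58 had 8.82, 8.86 and 8.82 on the 8KR arrays and 8.37, 8.49 and 8.40 on the wild type arrays, a rise of 0.41 (adjusted p = 0.037). The C/D box RNAs themselves had 1 call in each direction.

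H/ACA box proteins and assembly factors had 0 of 6 genes called by limma and 2 at an unadjusted p under 0.05. These were Nhp2, a core protein gene, at 0.23 (adjusted p = 0.15) and Naf1, an assembly factor gene, at -0.22 (adjusted p = 0.225). On the Cajal body list, 1 of 5 was called. Terc, the RNA of telomerase, which ends in an H/ACA domain, rose by 0.45 in 8KR cells (adjusted p = 0.0363). Nolc1, for a nucleolar and Cajal body phosphoprotein, differed by -0.40 (adjusted p = 0.102).

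Of 6 genes for the 7SK particle, 1 was called. Mepce, which caps 7SK RNA, had 6.04, 5.83 and 5.91 on the 8KR arrays and 6.47, 6.62 and 6.57 on the wild type arrays, a fall of 0.63 on the log2 scale (log2 difference -0.63, adjusted p = 0.0207). Ccnt1, for a cyclin of P-TEFb, differed by -0.42 (adjusted p = 0.12). Larp7, for the protein bound to the end of 7SK RNA, differed by 0.08 (adjusted p = 0.74).

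Decay factors for host transcripts and introns had 2 of 11 genes called. The decapping enzyme gene Dcp2 rose by 0.76 (adjusted p = 0.0324) and the exosome nuclease gene Dis3 rose by 0.46 (adjusted p = 0.0264) in 8KR cells. Dbr1, for the enzyme that opens intron lariats, differed by -0.26 (adjusted p = 0.501).

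Other small noncoding RNAs outside the classes above numbered 6 tested, with 2 calls. Besides Terc, the vault RNA gene Vaultrc5, which RNA polymerase III transcribes, had 6.56, 6.68 and 6.73 on the 8KR arrays and 7.95, 7.74 and 7.39 on the wild type arrays. It differed by -1.04 (SE 0.15, adjusted p = 0.023). Rmrp and Rpph1, RNAs of ribonucleases MRP and P, differed by -0.16 (adjusted p = 0.30) and -0.11 (adjusted p = 0.455), each with groups that did not overlap (26.6% of all probe sets). The rest of this list, Rny1 and Rny3, differed by -0.18 (adjusted p = 0.58) and 0.06 (adjusted p = 0.842), each with overlapping groups.

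**Figure D4:**
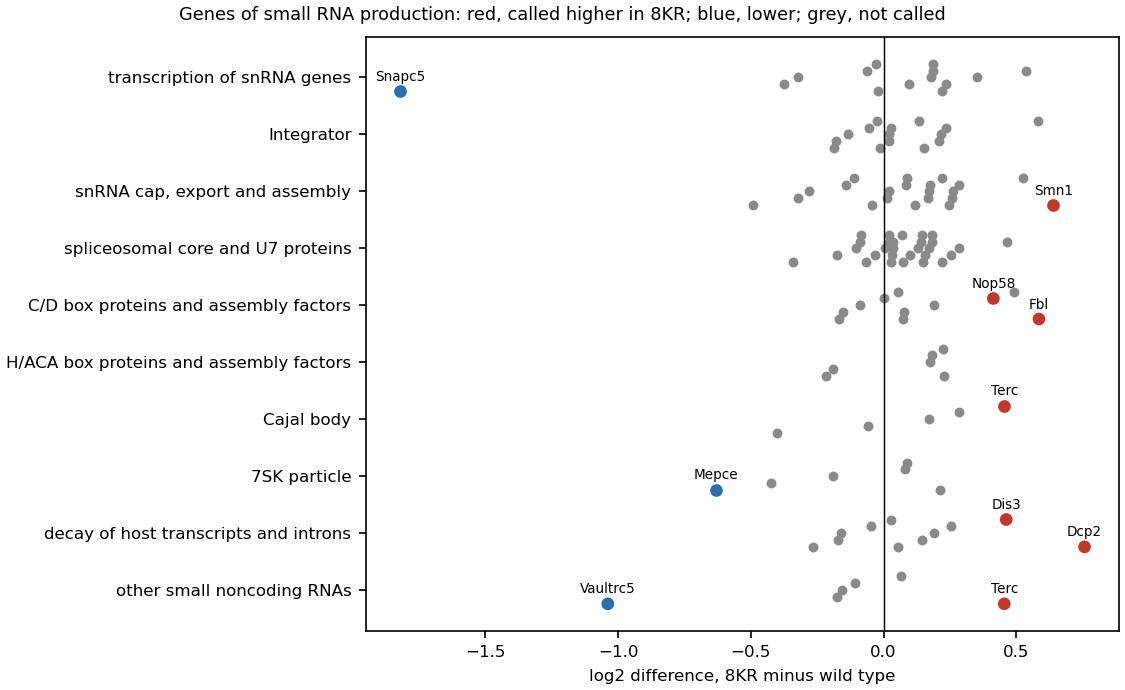
Log2 difference, 8KR minus wild type (horizontal axis), of the tested genes on each list of small RNA production (rows, 1 point per gene, with points offset vertically for legibility). Called genes are named, in red where higher and in blue where lower in 8KR cells, and Snapc5 lies farthest from zero at -1.82.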

How the data were processed

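Gene expression was measured on 3 8KR and 3 wild type arrays. The authors normalized the array values and deposited them as log2 intensities, 1 per probe set and array. Affymetrix Power Tools 1.12.0 appears in the submitters' processing notes, with the normalization method and build not given in the sources used here. Following the study's methods, probe sets with no group mean above 3.0 were removed, which took out 7014 of 35557, and the rest were fitted with lmFit and eBayes of limma 3.58.1 under R 4.3.3, as 8KR minus wild type and without covariates. Benjamini-Hochberg adjustment ran over all 28543 probe sets, and no p was adjusted over the small RNAs alone. The fit called 1245 probe sets, fewer than the number of changed RNAs that the paper reports with these methods. The reason for the gap was not tested. Arrays give no read depth, so that their number limits the precision.

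In the platform annotation 21789 probe sets have 1 symbol, 1621 several and 12147 none. Of the 60 symbols, 7 had more than 1 probe set, and in 3 of these the values were identical within 0.005. RefSeq (GRCm38.p6) matched all 60 and was used for names, containing genes, neighbours and promoters. The RefSeq promoter table gives a strand but holds none of the small RNAs, and the gene table that places them gives no strand. Containment therefore ignored strand, although the design had asked for the same strand. Tables were made with Python 3.11.15, pandas 2.3.3 and scipy 1.17.1, and figures with matplotlib 3.10.9.

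The members, lists and rule were chosen with earlier results of these data known. The rule named every called small RNA, the 3 highest and 3 lowest of each class, every tested Scarna, Rnu and Rn7sk, and on each list the called genes and the 2 with the smallest p. Neighbours, pairs in shared hosts, Larp7, Dbr1, Rmrp, Rpph1, Rny1, Rny3, Des and the probe sets of U1, U2 and further U3 genes were named after their values were seen. The fit was run on simulated data with known changes. Recovery was required there only for changes larger than any seen among the small RNAs. Alternatives covered the filter, variance model, normalization, array weights, replicate block, probe sets entering, probe set per symbol and each array left out.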

Additional observations from a re-analysis of the deposited data

How the results depend on the processing

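The count of called small RNAs was 3 in the reported fit and also 3 with no filter, quantile normalization, median centring, array weights or the mean of a symbol's probe sets. It was 7 with a filter at a group mean above 5.0, 6 with an intensity trend and 7 with single-symbol probe sets in the fit, where the same 3 RNAs were called again with others. With 1 array left out it was 1 to 2. Probe sets called numbered 1245 in the reported fit, 2295 with the filter above 5.0, 2200 with the trend and 368 to 406 with 1 array left out. The median difference of the small RNAs, 0.04 in the reported fit, was 0.0036 with the filter above 5.0, 0.016 with median centring and 0.020 to 0.060 with 1 array left out. Replicate numbers did not pair the arrays: same-numbered arrays had correlations of deviations of -0.011, 0.0086 and -0.00048. With the replicate block, 77 probe sets and 0 small RNAs were called, with adjusted p-values of 0.0739 for Rnu3a, 0.0712 for Scarna17 and 0.0957 for Snord16a. The difference of Rnu12, near zero, turned positive when 8KR replicate 1 (0.060), wild type replicate 2 (0.067) or wild type replicate 3 (0.056) was left out, over a range of -0.15 to 0.067 with 1 array left out. Of 268 alternative values for the 18 named small RNAs, 237 kept direction and side of the threshold. Of the others, 13 passed it anew, 15 no longer passed it and 3 changed sign. The 15 all belong to the 3 RNAs called in the reported fit, while most of the 237 belong to RNAs not called in it. The cause of these changes was not tested.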

Other observations

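Probe sets whose annotation lists a small RNA together with other genes were left out of the comparison. There were 61 of them, and 37 were tested. Those of U1, U2 and U3 were not called. Of the 37, 3 were called, against 4.36% of all probe sets, and 2 of the 3 hold identical values. The identical pair lists an H/ACA box RNA with microRNA genes, and averaged 4.83 ± 0.44 on the 8KR arrays and 6.16 ± 0.11 on the wild type arrays (SD, n = 3 each), a difference of -1.33 (SE 0.22, limma adjusted p = 0.0334). The other lists a C/D box RNA with a ribosomal protein gene, and averaged 4.82 ± 0.095 on the 8KR arrays and 5.31 ± 0.060 on the wild type arrays, a difference of -0.48 (SE 0.084, limma adjusted p = 0.0355). Which of the listed genes the probes read was not tested.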
